A study of Mus musculus with 9 samples.

Results

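The glutathione and peroxidase defence genes are the enzymes that make and recycle glutathione, remove hydrogen peroxide, lipid peroxides and superoxide, or couple glutathione to reactive compounds, together with the transcription factor that switches many of them on. They were chosen by annotated symbol, though earlier results of these data were known when the families were picked. The families were the Gst classes, Mgst, Gpx, Prdx, Txn with Txnrd, and Sod, and the single genes were Gclc, Gclm, Gss, Gsr, Cat, Nqo1 and Nfe2l2. The annotation gave 54 probe sets with 1 such symbol, which stood for 50 of the 19937 genes with a probe set of their own on the array. Gpx4, Gstm3, Prdx1 and Prdx2 had more than 1 probe set, and the brightest of them on average was used. The 50 genes comprised 1 regulator, 3 genes of glutathione synthesis, 2 reductases, 8 glutathione peroxidases, 1 catalase, 5 peroxiredoxins, 5 genes of the thioredoxin system, 3 superoxide dismutases, 19 glutathione transferases and 3 membrane-bound transferases.

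RNA of whole oviduct from female CD1 mice, an outbred strain, was measured on 9 Affymetrix arrays: 3 from mature females in diestrus, 3 from mature females in estrus and 3 from sexually immature females of day 21. No animal of any group had received hormones, and the ages of the mature females were not given in the sources used here. Each array carried total RNA of tissue pooled from 5 animals, so the spread between arrays is a spread between pools. The oviduct is the tube in which eggs are fertilised and early embryos travel. Because whole organ was used, fewer cells of a type and less RNA per cell cannot be told apart in any value below.

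Glutathione is a small thiol made in successive steps by glutamate-cysteine ligase (the catalytic subunit Gclc and the modifier Gclm) and glutathione synthetase (Gss). Glutathione peroxidases spend it on peroxides, glutathione reductase (Gsr) restores it, and transferases attach it to electrophiles, while peroxiredoxins do similar work with electrons from thioredoxin. NRF2, the protein of Nfe2l2, is held down by KEAP1 and, when released, binds antioxidant response elements near many of these genes; in the oviduct these enzymes are known for limiting oxidants around gametes and embryos.

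The core of the antioxidant response element, TGACNNNGC, was searched on both strands of the 250 bases before each RefSeq gene start (build GRCm38.p6), and windows were found for 44 of the 50 genes. The letters occurred in 9 of 58 windows of the defence genes (15.5%), against 10.2% of 32851 windows of all genes. The 9 genes were Nfe2l2, Gclm, Prdx1, Txnrd1, Sod1, Mgst1, Gsta3, Gstm5 and Gstm7. A match is a description of the letters and not a site in use. Matches in the regulator itself and in 1 gene each of synthesis, the peroxiredoxins, the thioredoxin system and the transferases are shown 5′ to 3′ on the strand of the gene, with the core in capitals; in Gclm, Prdx1 and Txnrd1 the core lies on the opposite strand, so the capitals are its reverse complement.
Nfe2l2, chr2:75704884-75704913, minus strand: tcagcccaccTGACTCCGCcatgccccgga
Gclm, chr3:122245412-122245442, plus strand: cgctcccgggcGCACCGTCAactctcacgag
Prdx1, chr4:116685455-116685485, plus strand: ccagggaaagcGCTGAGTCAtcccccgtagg
Txnrd1, chr10:82859103-82859133, plus strand: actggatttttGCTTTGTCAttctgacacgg
Gsta3, chr1:21240453-21240483, plus strand: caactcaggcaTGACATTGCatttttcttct
The match lay 240 bases before the start of Nfe2l2, 134 before Gclm, 133 before Prdx1, 92 before Txnrd1 and 121 before Gsta3. In Prdx1 it overlaps the letters TGAGTCA, the site of the AP-1 factors. No window was found for 6 genes, Gclc and Sod3 among them, so these were not searched. None of the 9 genes with a match passed the test in any comparison given below.

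The log2 values had medians of 8.85 to 8.90 on the 9 arrays. Arrays of 1 group correlated at 0.992 to 0.996 and arrays of different groups at 0.990 to 0.995. Of the 50 genes, 39 lay above the median of every array. Another 8 lay below it on every array (Gpx5, Gpx6, Gstm6, Gsto2, Gstp3, Gstt4, Mgst2 and Txnrd2), 4 of them (Gpx5, Gpx6, Gstt4 and Mgst2) below the lower quartile of each array as well, and these were not shown to be above background. Markers of the organ's own epithelium were present on all arrays: 5 genes of secretory cells averaged 11.61 to 11.74 and 7 of ciliated cells 11.39 to 11.76. Smooth muscle, posterior Hox and ovarian markers stood high on some arrays. The 6 smooth muscle genes averaged 12.27 on diestrus 3 and 11.50 to 11.76 on the other arrays, and the 6 posterior Hox genes 8.73 on diestrus 3 and 7.99 to 8.29 elsewhere. The 11 genes of ovarian steroid-making and granulosa cells averaged 9.47 on diestrus 2, 9.18 on immature 2 and 8.78 on diestrus 3. On the other arrays they averaged 8.09 to 8.28. Of these 11 genes, 6 were higher in diestrus than in immature oviduct, while Inha, Inhba, Amh, Foxl2 and Fshr were lower. Star, an ovarian marker that carries cholesterol into mitochondria, was itself higher in diestrus than in immature oviduct by 0.74 ± 0.14 (SE; limma, adjusted p = 0.0463), a call that held without diestrus 1 and was lost on leaving out any of the other arrays (adjusted p = 0.0542 to 0.157, limma). The 4 markers of dividing cells averaged 9.45 to 10.30 in diestrus, 9.54 to 10.04 in estrus and 10.48 to 10.59 in immature oviduct, and the 6 of fat cells 8.09 to 8.38 in diestrus, 8.17 to 8.33 in estrus and 8.30 to 8.97 in immature oviduct. The 7 of macrophages averaged 9.91 on diestrus 3 and 9.23 to 9.55 elsewhere. None of these 3 lists had a called gene.

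In diestrus compared with immature oviduct, 2 of the 50 genes passed the test. Gpx3, the secreted glutathione peroxidase of plasma and extracellular fluid, was 1.74-fold higher, and Gclc, which makes the first and rate-limiting bond of glutathione, was lower. The others did not pass, among them all transferases, peroxiredoxins, thioredoxin genes and superoxide dismutases. The test was limma's moderated test across all 28214 probe sets with Benjamini-Hochberg adjustment, and a gene was called at an adjusted p under 0.05; 1.0% of all probe sets were called in this comparison, 0.294% higher and 0.705% lower. At an unadjusted p under 0.05 there were 17 defence genes (34%), 9 higher and 8 lower, beside 13.4% of all probe sets. The median difference was 0.02 over the defence genes and 0.01 over all probe sets. The diestrus arrays lay wholly above the immature ones for 8 genes (16%, beside 7.52% of all probe sets) and wholly below for 6 (12%, beside 10.9%); 18.4% of all probe sets had no overlap in either direction. The 95% interval of the difference, not adjusted for the number of genes, stayed within 1.5-fold for 46 of the 50 genes (92%), beside 94.7% of all probe sets; the exceptions were Gpx3, Gstm7, Gsto1 and Nqo1.

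In estrus compared with immature oviduct, none of the 50 genes passed limma's test, and the smallest adjusted p was 0.294 (Nqo1). Of all probe sets, 0.0851% passed, 0.0319% higher and 0.0532% lower. Unadjusted p-values under 0.05 came from 11 defence genes (22%), 2 higher and 9 lower, beside 6.52% of all probe sets. Differences ran from -0.39 (Nqo1) to 0.35 (Gpx3), with a median of -0.02 over the defence genes and 0.01 over all probe sets. The estrus arrays lay wholly above the immature ones for 4 genes (8%, beside 3.19%) and wholly below for 10 (20%, beside 6.62%); the share over all probe sets was 9.8% in both directions together. The interval stayed within 1.5-fold for 46 genes (92%), beside 95.98% of all probe sets.

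In diestrus compared with estrus, Gclc alone passed, again lower in diestrus, beside 0.159% of all probe sets called, 0.0673% higher and 0.0922% lower. There were 10 defence genes (20%) at an unadjusted p under 0.05, 7 higher and 3 lower, beside 9.33% of all probe sets. The diestrus arrays lay wholly above the estrus ones for 7 genes (14%, beside 4.93%) and wholly below for 4 (8%, beside 6.85%), together 11.8% of all probe sets. The median difference was 0.06 over the defence genes and -0.01 over all probe sets. With both mature stages averaged and set against immature oviduct, none of the 50 genes passed, beside 0.432% of all probe sets (0.121% higher, 0.312% lower); 11 (22%, beside 10.0%) had an unadjusted p under 0.05, and the smallest adjusted p was 0.0592 (Gpx3, difference 0.57 ± 0.10 SE). All 6 mature arrays lay above the immature ones for 2 genes (4%, beside 1.4% of all probe sets), Gpx3 and Gstm1, and below for 4 (8%, beside 3.18%), Gpx8, Gstm5, Nqo1 and Txn1, where 4.58% of all probe sets had no overlap in either direction. The comparisons share arrays, the immature ones for both mature stages and the diestrus ones for both contrasts of diestrus, so their values are not independent of each other.

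**Figure D1:**
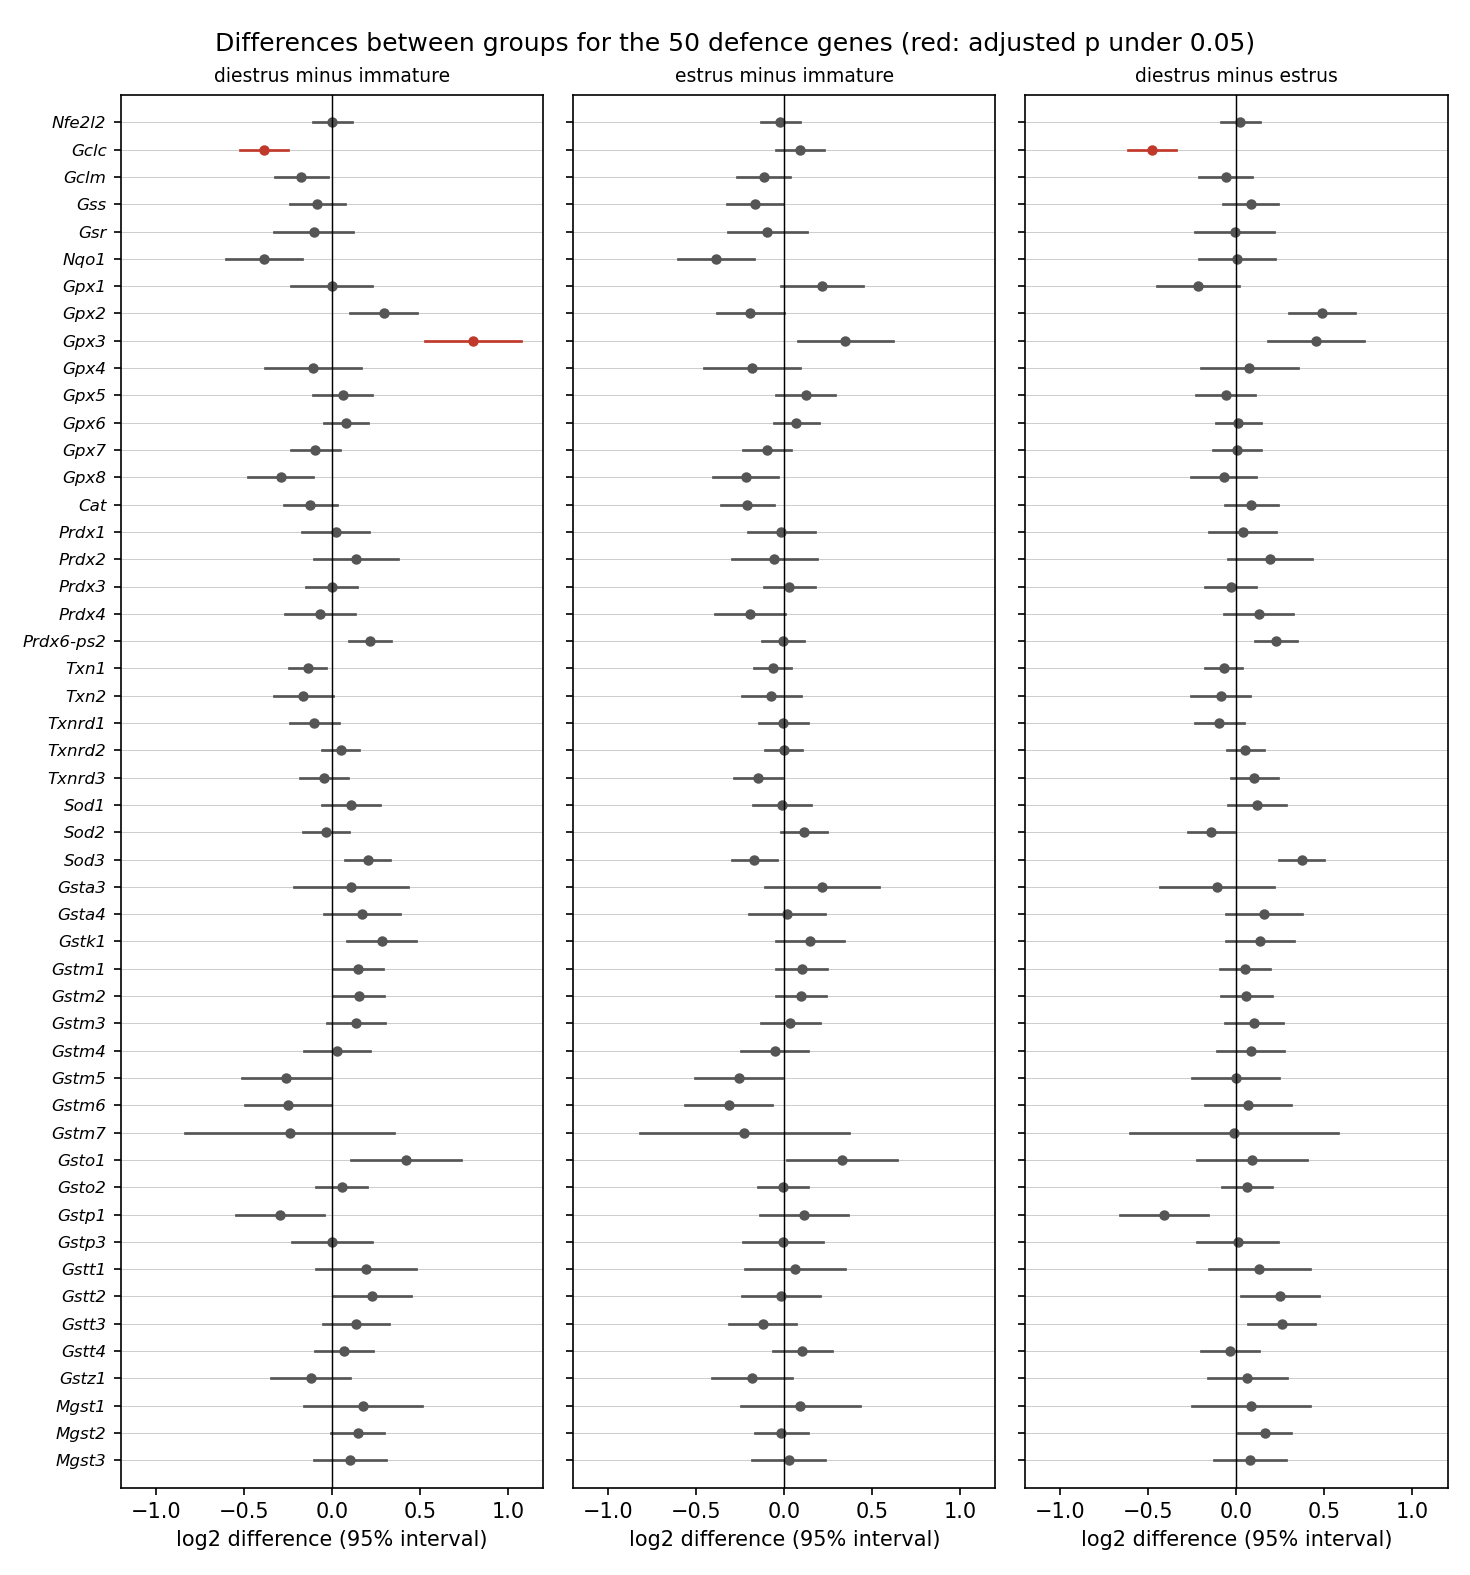
Differences of log2 value for the 50 defence genes in 3 comparisons (columns), each with its 95% interval from limma over 9 arrays; genes run down the page by role, and red marks an adjusted p under 0.05. Gpx3 at 0.80 and Gclc at -0.39 are red for diestrus minus immature, Gclc at -0.48 for diestrus minus estrus, and no gene for estrus minus immature.

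Among the 8 glutathione peroxidases, Gpx3 had the widest range over the arrays. It read 11.97, 12.09 and 11.65 on the diestrus arrays, 11.34, 11.67 and 11.33 on the estrus arrays and 11.15, 11.11 and 11.04 on the immature arrays. Every diestrus and every estrus array lay above every immature array, while diestrus 3 and estrus 2 overlapped. The difference was 0.80 ± 0.12 (SE; 95% interval 0.53 to 1.07; limma, adjusted p = 0.0221) for diestrus minus immature. For diestrus minus estrus it was 0.45 ± 0.12 (adjusted p = 0.216, limma) and for estrus minus immature 0.35 ± 0.12 (adjusted p = 0.601, limma), neither of which passed. The call for diestrus minus immature was lost when any of immature 1, 2 or 3 was left out (0.83, 0.80 and 0.77, adjusted p = 0.0685, 0.0933 and 0.0936, limma) and without diestrus 1 or diestrus 2 (0.77 and 0.71, adjusted p = 0.0783 and 0.0833, limma). Without diestrus 2, diestrus 3 and immature 2 together, where ovarian or muscle and Hox markers stood high, the difference was 0.87. That fit left diestrus 1 as the only diestrus array, so its value rests on a single diestrus pool. With only the 6 arrays compared, the adjusted p was 0.0596 (limma). Star moved in the same comparison, while the 11 ovarian markers were split in sign. The part of ovarian tissue in the difference of Gpx3 was not tested.

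The 250 bases before the RefSeq start of Gpx3 are shown because this gene had the largest difference of the 50 in diestrus minus immature. The window held no antioxidant core and 1 match of TGTTCT, the hexamer of the elements bound by the progesterone, glucocorticoid and androgen receptors, which is in capitals. That hexamer was searched on both strands after the values had been seen.
Gpx3, GRCm38.p6, chr11:54902604-54902853, plus strand: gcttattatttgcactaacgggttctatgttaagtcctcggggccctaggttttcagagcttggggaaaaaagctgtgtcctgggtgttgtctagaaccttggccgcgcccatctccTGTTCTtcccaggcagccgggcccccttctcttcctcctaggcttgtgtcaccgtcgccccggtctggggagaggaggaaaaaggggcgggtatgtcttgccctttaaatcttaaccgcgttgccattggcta
The match lay 133 bases before the start. Such a short word is common: 15.5% of the windows of defence genes and 16.1% of all windows held it.

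Gpx2, the epithelial glutathione peroxidase best known from the gut, read 9.88, 9.96 and 9.72 on the diestrus arrays, 9.36, 9.32 and 9.42 on the estrus arrays and 9.40, 9.66 and 9.62 on the immature arrays. The diestrus arrays stood above all others, and immature 1 lay among the estrus arrays. Diestrus exceeded estrus by 0.49 ± 0.08 (SE; 95% interval 0.30 to 0.68), which did not pass at an adjusted p of 0.0705 (limma), and exceeded immature by 0.29 ± 0.08 (adjusted p = 0.165, limma). Estrus minus immature was -0.19 ± 0.08 (adjusted p = 0.760, limma). Gpx8, a peroxidase of the endoplasmic reticulum, read 11.65, 11.65 and 11.89 in diestrus, 11.82, 11.76 and 11.83 in estrus and 12.13, 12.03 and 11.90 in immature oviduct. All mature arrays lay below all immature ones, the nearest pair being diestrus 3 and immature 3. The differences from immature were -0.29 ± 0.08 for diestrus (adjusted p = 0.157, limma) and -0.22 ± 0.08 for estrus (adjusted p = 0.668, limma). Without diestrus 3 the difference of diestrus from immature grew to -0.37 and passed (adjusted p = 0.0458, limma).

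Gpx1, the cytosolic peroxidase found in nearly all cells, averaged 11.96 ± 0.15 in diestrus, 12.17 ± 0.10 in estrus and 11.96 ± 0.17 in immature oviduct (SD, n = 3 each). Its groups overlapped, and no comparison passed. Gpx4, which reduces peroxides inside membrane lipids, averaged 10.84 ± 0.13 in diestrus, 10.77 ± 0.18 in estrus and 10.95 ± 0.21 in immature oviduct (SD, n = 3 each). Its differences lay between -0.18 and 0.07, and the further probe set of the gene gave -0.11 to 0.00. Gpx7, of the endoplasmic reticulum, ran from 8.85 to 9.07 over the 9 arrays, Gpx6 from 7.34 to 7.54 and Gpx5, the peroxidase of the epididymis, from 6.05 to 6.33.

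Gclc gave the only call of synthesis genes. Its probe set read 11.22, 11.33 and 11.19 on the diestrus arrays, 11.73, 11.65 and 11.80 on the estrus arrays and 11.67, 11.60 and 11.64 on the immature arrays. The diestrus arrays lay wholly below the other 6, and estrus and immature arrays overlapped. The difference was -0.48 ± 0.06 (SE; 95% interval -0.61 to -0.34; limma, adjusted p = 0.0229) for diestrus minus estrus, a level 1.39-fold higher in estrus. For diestrus minus immature it was -0.39 ± 0.06 (95% interval -0.53 to -0.25; limma, adjusted p = 0.0251), a level 1.31-fold higher in immature oviduct. For estrus minus immature it was 0.09 ± 0.06 (adjusted p = 0.854, limma).

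Both calls of Gclc were lost in some fits with fewer arrays, while the differences kept their sign. They were lost as well with the replicate number as a block (adjusted p = 0.0706 against immature and 0.0728 against estrus, limma). Diestrus minus immature stayed between -0.43 and -0.36 but missed the threshold without immature 1, 2 or 3 (adjusted p = 0.0957, 0.0899 and 0.0936, limma) and without diestrus 1 or 2 (0.0936 and 0.0554). Diestrus minus estrus stayed between -0.52 and -0.44 but missed it without immature 2 or 3 (adjusted p = 0.0552 and 0.0535, limma), estrus 1 or 3 (0.0821 and 0.0931) and diestrus 1 or 2 (0.0822 and 0.0984). Without diestrus 2, diestrus 3 and immature 2 together the differences were -0.43 from immature and -0.51 from estrus. These rest on diestrus 1 as the only diestrus array left. With only the 6 arrays of the groups compared, the adjusted p was 0.0539 against immature and 0.109 against estrus (limma). Gclc read 11.22 on diestrus 1, where the ovarian markers averaged 8.15, the smooth muscle markers 11.51 and the Hox genes 8.15. The part of these tissues in the differences of Gclc was not tested.

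Gclm, the modifier subunit that raises the enzyme's efficiency, read 11.39, 11.37 and 11.23 in diestrus, 11.36, 11.48 and 11.32 in estrus and 11.47, 11.58 and 11.46 in immature oviduct. The diestrus arrays lay below the immature ones, by -0.18 ± 0.07 (SE; adjusted p = 0.291, limma), and diestrus and estrus overlapped with a difference of -0.06. Gss, which adds glycine to complete glutathione, averaged 9.70 ± 0.07 in diestrus, 9.62 ± 0.03 in estrus and 9.79 ± 0.12 in immature oviduct (SD, n = 3 each). Thus 3 of 3 synthesis genes had a negative difference for diestrus minus immature, as had 13064 of all 28214 probe sets, and Gclc passed. Gsr, which returns oxidised glutathione to its reduced form, averaged 11.53 ± 0.07 in diestrus, 11.54 ± 0.11 in estrus and 11.63 ± 0.20 in immature oviduct (SD, n = 3 each), with overlapping groups.

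**Figure D2:**
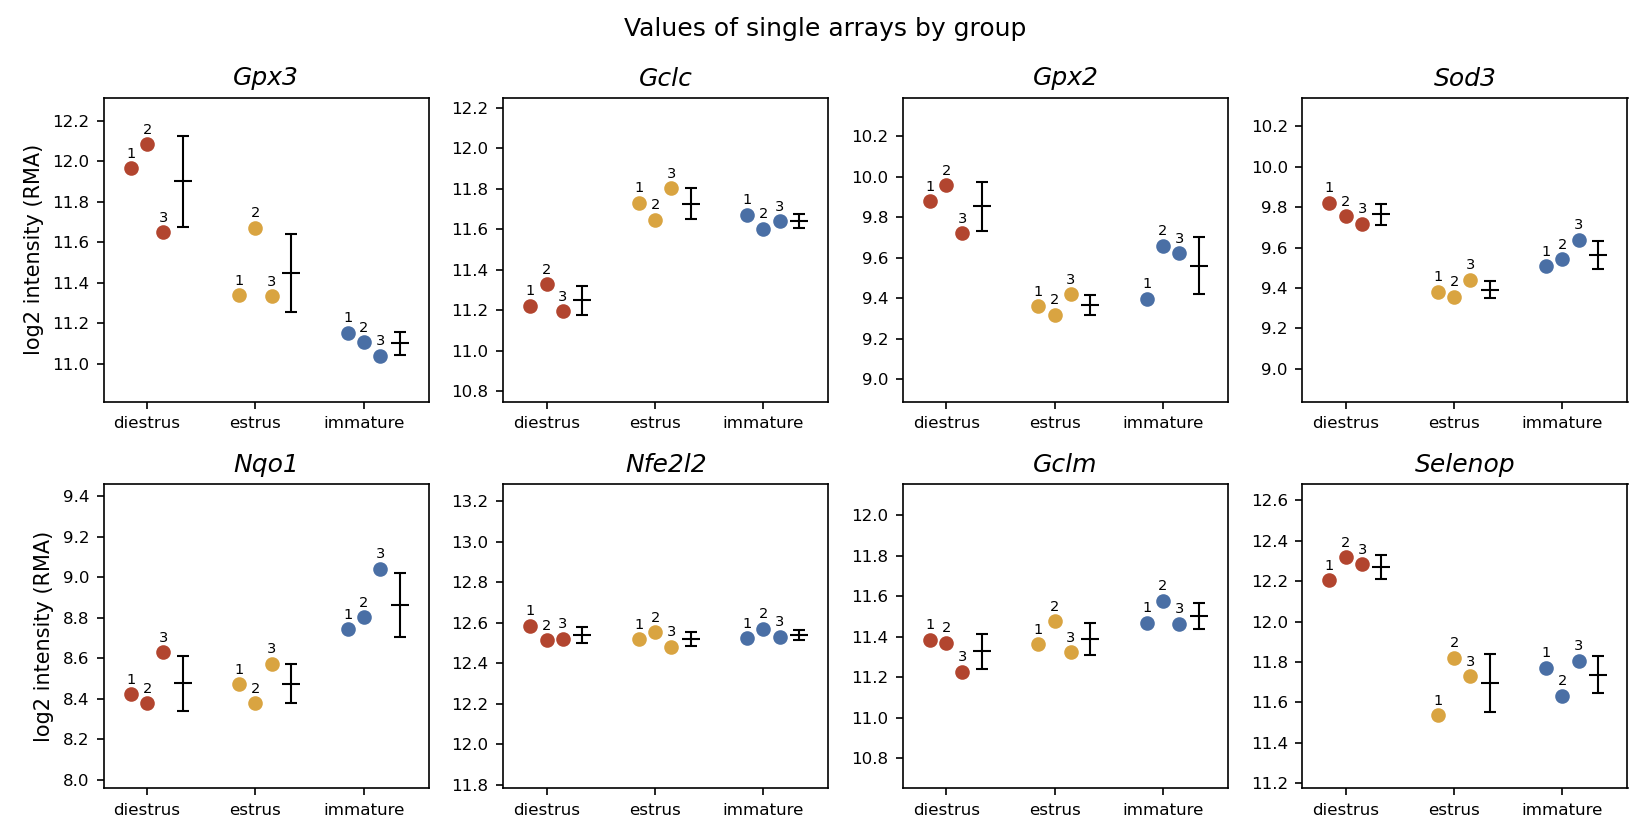
RMA log2 intensity of 8 genes on each array (points, numbered by replicate), with mean and SD (bars, n = 3) in diestrus, estrus and immature oviduct; each panel spans the same height but not the same level. Gpx3 and Selenop stand highest and Gclc lowest in diestrus, Nqo1 is lower on all mature arrays than on the immature ones, and Nfe2l2 stays between 12.48 and 12.59.

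Nfe2l2 itself spanned 0.10 over the 9 arrays, a smaller range than any defence gene but Txnrd2 (0.09). It read 12.59, 12.52 and 12.52 in diestrus, 12.52, 12.55 and 12.48 in estrus and 12.52, 12.57 and 12.53 in immature oviduct, and the groups overlapped. The fitted difference was 0.00 for diestrus minus immature, with a 95% interval of -0.11 to 0.11, and -0.02 for estrus minus immature (-0.13 to 0.09). Its messenger RNA does not report how much of its protein is released. Nqo1, a quinone reductase and classical target of NRF2, read 8.42, 8.38 and 8.63 in diestrus, 8.47, 8.38 and 8.57 in estrus and 8.74, 8.80 and 9.04 in immature oviduct. All 6 mature arrays lay below all 3 immature ones, at values near or under the array medians. The differences were -0.39 ± 0.10 for each mature stage (SE; adjusted p = 0.110 for diestrus and 0.294 for estrus, limma), 0.00 ± 0.10 between diestrus and estrus, and -0.39 ± 0.08 for their mean against immature (adjusted p = 0.110, limma). None passed. The mean of the 4 dividing cell markers was likewise lower on all mature arrays, though Pcna alone overlapped between the groups, and their part in the differences of Nqo1 and Gpx8 was not tested.

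Catalase, which splits hydrogen peroxide without glutathione, read 11.53, 11.58 and 11.47 in diestrus, 11.34, 11.54 and 11.44 in estrus and 11.66, 11.57 and 11.71 in immature oviduct. The estrus arrays lay below the immature ones with a narrow gap, by -0.21 ± 0.07 (SE; adjusted p = 0.542, limma), and diestrus overlapped with both. The peroxiredoxins gave little contrast: Prdx1, a bright cytosolic member, averaged 12.86 ± 0.07 in diestrus, 12.82 ± 0.16 in estrus and 12.83 ± 0.09 in immature oviduct (SD, n = 3 each). All 3 of its differences lay between -0.02 and 0.04, and those of its further probe set between -0.06 and 0.09. Prdx2, Prdx3 and Prdx4 did not pass either, and the probe sets of Prdx2 differed in sign for diestrus minus immature, at 0.13 and -0.02. The probe set annotated to the pseudogene Prdx6-ps2 read 9.62, 9.68 and 9.69 in diestrus, 9.44, 9.38 and 9.49 in estrus and 9.41, 9.44 and 9.49 in immature oviduct. Its diestrus arrays stood above the rest, by 0.22 ± 0.05 from either group (SE; adjusted p = 0.108 against immature and 0.172 against estrus, limma); Prdx6, the gene it resembles, had no probe set with 1 symbol and was not analysed here, so which transcript this probe set measured is uncertain.

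In the thioredoxin system all 5 genes had a negative difference for estrus minus immature and 4 of 5 for diestrus minus immature. Of all 28214 probe sets, 12721 and 13064 were negative in these comparisons. The medians of the 5 genes were -0.07 and -0.10, and none passed. Txnrd1 and Txnrd2 lay near 0 for estrus minus immature, at -0.006 and -0.004. Txn1, cytosolic thioredoxin, read 13.88, 13.90 and 13.85 in diestrus, 13.95, 13.93 and 13.96 in estrus and 13.97, 14.04 and 14.03 in immature oviduct. The 3 groups did not overlap, yet the largest step, diestrus minus immature, was -0.14 ± 0.05 (SE; adjusted p = 0.235, limma). Txnrd1, the cytosolic reductase of thioredoxin, averaged 9.92 ± 0.11 in diestrus, 10.02 ± 0.02 in estrus and 10.02 ± 0.02 in immature oviduct (SD, n = 3 each).

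Among the superoxide dismutases the extracellular enzyme Sod3 varied most. It read 9.82, 9.76 and 9.72 in diestrus, 9.38, 9.36 and 9.44 in estrus and 9.51, 9.54 and 9.64 in immature oviduct. No groups overlapped: diestrus was highest and estrus lowest. Diestrus minus estrus was 0.37 ± 0.06 (SE; 95% interval 0.24 to 0.50), 1.29-fold, and missed the threshold narrowly at an adjusted p of 0.0502 (limma). It passed under several of the other settings tried and without diestrus 3 (adjusted p = 0.0491, limma). Diestrus minus immature was 0.20 ± 0.06 (adjusted p = 0.158, limma) and estrus minus immature -0.17 ± 0.06 (adjusted p = 0.587, limma). Sod1, the cytosolic copper-zinc enzyme, averaged 12.43 ± 0.06 in diestrus, 12.31 ± 0.05 in estrus and 12.32 ± 0.13 in immature oviduct (SD, n = 3 each). Sod2, the manganese enzyme of mitochondria, read 11.83, 11.96 and 11.91 in diestrus, 12.01, 12.13 and 11.99 in estrus and 11.93, 11.96 and 11.91 in immature oviduct. Its estrus arrays were the highest 3, and diestrus minus estrus was -0.15 ± 0.06 (adjusted p = 0.457, limma).

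**Figure D3:**
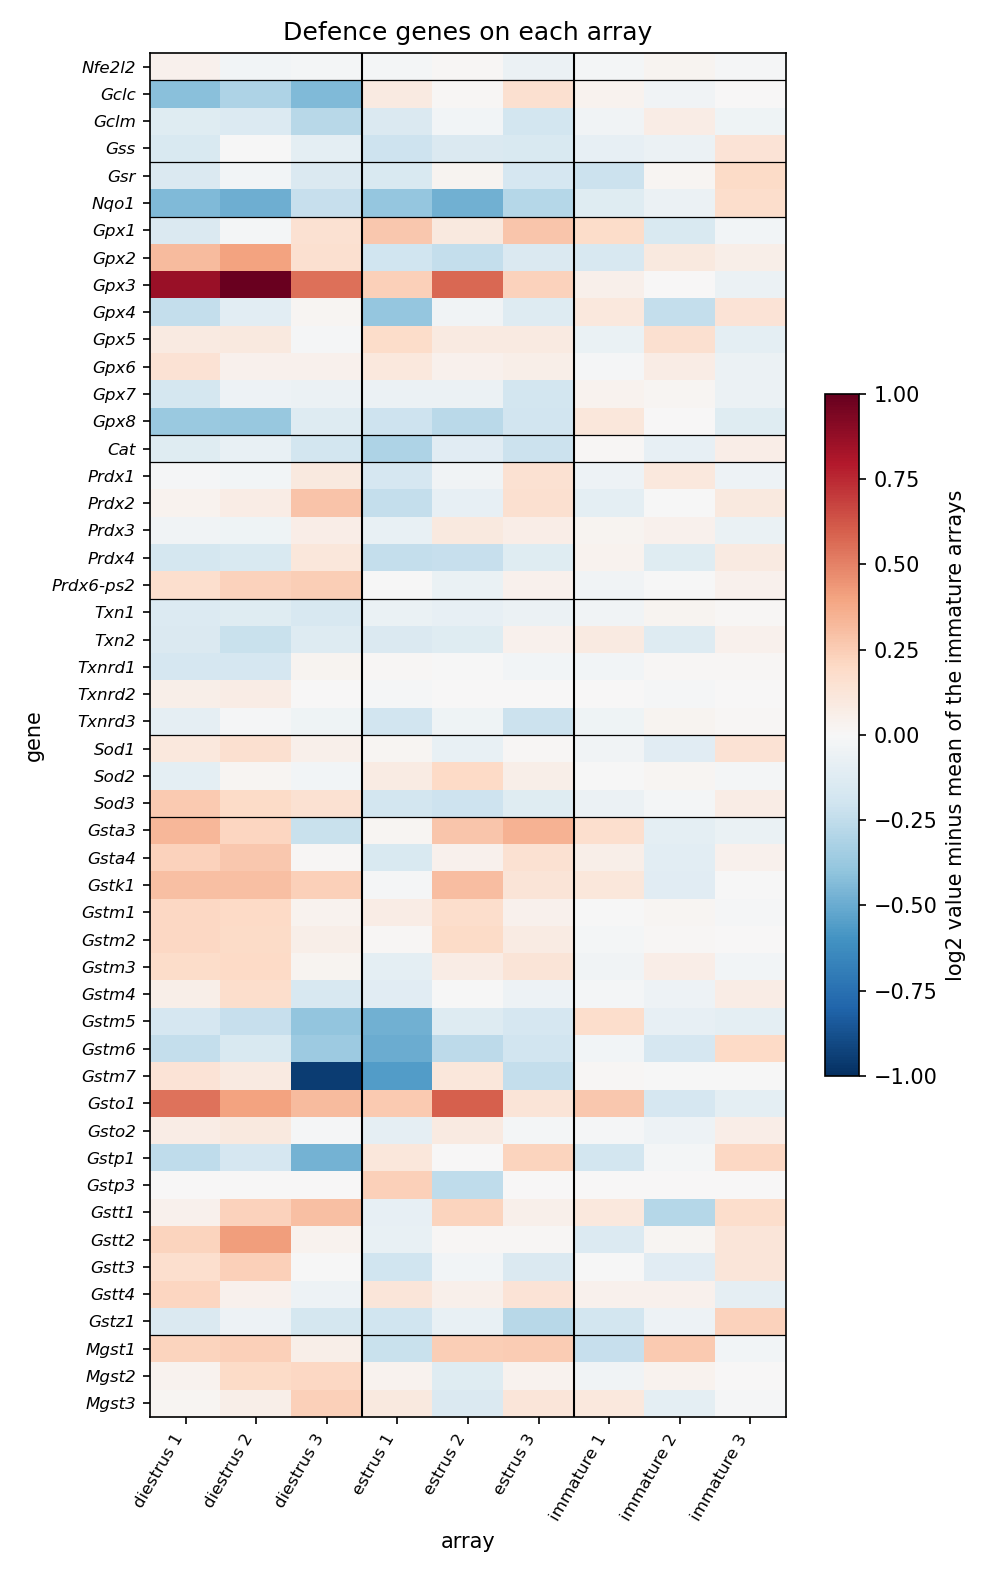
Each row is a defence gene, grouped by role in the same order as the intervals above, and each column an array; colour is the log2 value minus the mean of the 3 immature arrays, from -1 (blue) to 1 (red). Gpx3 is the reddest row over the diestrus arrays, Gclc is blue on the diestrus arrays only, and Gstm7 is bluest on diestrus 3 and estrus 1.

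None of the 19 glutathione transferases and 3 membrane-bound transferases passed in any comparison. For diestrus minus immature, 13 of the 19 had a positive difference, beside 15094 of all 28214 probe sets, and the median of the 19 was 0.11. Gsto1, an omega class enzyme that reduces arsenic compounds, read 12.00, 11.86 and 11.77 in diestrus, 11.72, 12.06 and 11.59 in estrus and 11.72, 11.29 and 11.36 in immature oviduct. Diestrus arrays lay above the immature ones by 0.42 ± 0.14 (SE; adjusted p = 0.224, limma), while estrus 1 and 3 lay below immature 1. Gstk1, the kappa class enzyme of mitochondria and peroxisomes, read 10.84, 10.84 and 10.77 in diestrus, 10.53, 10.85 and 10.67 in estrus and 10.65, 10.43 and 10.53 in immature oviduct. Only its diestrus arrays were clear of the immature ones, by 0.28 ± 0.09 (adjusted p = 0.189, limma).

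Gstp1, the pi class enzyme that is abundant in many epithelia, read 12.54, 12.63 and 12.32 in diestrus, 12.91, 12.80 and 13.02 in estrus and 12.61, 12.77 and 13.00 in immature oviduct. The diestrus arrays lay below the estrus arrays, by -0.41 ± 0.11 (SE; adjusted p = 0.224, limma), and diestrus 2 lay just above immature 1. A close relative, Gstp2, shares probe sets with it that were not used here, and Gstp3 read 8.14 on all arrays but estrus 1 and estrus 2. Of the theta class, Gstt2 and Gstt3 had diestrus arrays above the estrus arrays by 0.25 ± 0.10 and 0.26 ± 0.08 (adjusted p = 0.464 and 0.327, limma). The alpha class gene Gsta3 ran from 9.49 to 10.06 with overlapping groups, and the membrane-bound Mgst1 from 11.67 to 12.17.

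The 7 mu class genes, which lie together on chromosome 3, shared their low arrays. Gstm7 read 12.26, 12.21 and 11.18 in diestrus, 11.57, 12.24 and 11.89 in estrus and 12.14, 12.12 and 12.12 in immature oviduct. Its immature arrays spanned 0.02 while diestrus 3 and estrus 1 lay far below their groups, and its differences of -0.24 ± 0.26 and -0.23 ± 0.26 (SE) from immature could not be told from 0. All 7 mu class genes were lowest of their group on diestrus 3, as were 40.1% of all probe sets, and 6 of 7 were lowest of their group on estrus 1, as were 27.5%. The further probe set of Gstm3, below the median of every array, was also lowest on diestrus 3. In estrus it read 8.69, 8.62 and 8.71 and was lowest on estrus 2. Over all 19 transferases, 17 were lowest of their group on diestrus 3 and 13 on estrus 1. The 6 smooth muscle markers averaged 12.27 on diestrus 3, higher than on any other array, but 11.56 on estrus 1, within the range of the rest. Whether tissue make-up had a part in these low values was not tested.

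Within the mu class, Gstm1, the brightest transferase probe set, read 13.29, 13.29 and 13.12 in diestrus, 13.17, 13.26 and 13.13 in estrus and 13.08, 13.11 and 13.07 in immature oviduct. All mature arrays lay above all immature ones, but by only 0.15 ± 0.06 for diestrus (SE; adjusted p = 0.360, limma) and 0.10 ± 0.06 for estrus (adjusted p = 0.845, limma). The differences of Gstm5 and Gstm6 were negative, with Gstm5 at -0.26 ± 0.11 for both diestrus and estrus against immature and Gstm6 at -0.25 ± 0.11 and -0.32 ± 0.11 (SE; smallest adjusted p = 0.344, limma). Over the 9 arrays Gstm1 and Gstm2 correlated at 0.94 and Gstm5 and Gstm6 at 0.73, while Gstm1 and Gstm6 correlated at -0.36. These are descriptions over arrays that share groups, and close paralogs can also share hybridisation signal. The remaining 23 genes that are not described by the rule for named genes had differences from -0.16 to 0.22 for diestrus minus immature, -0.20 to 0.12 for estrus minus immature and -0.10 to 0.22 for diestrus minus estrus.

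**Figure D4:**
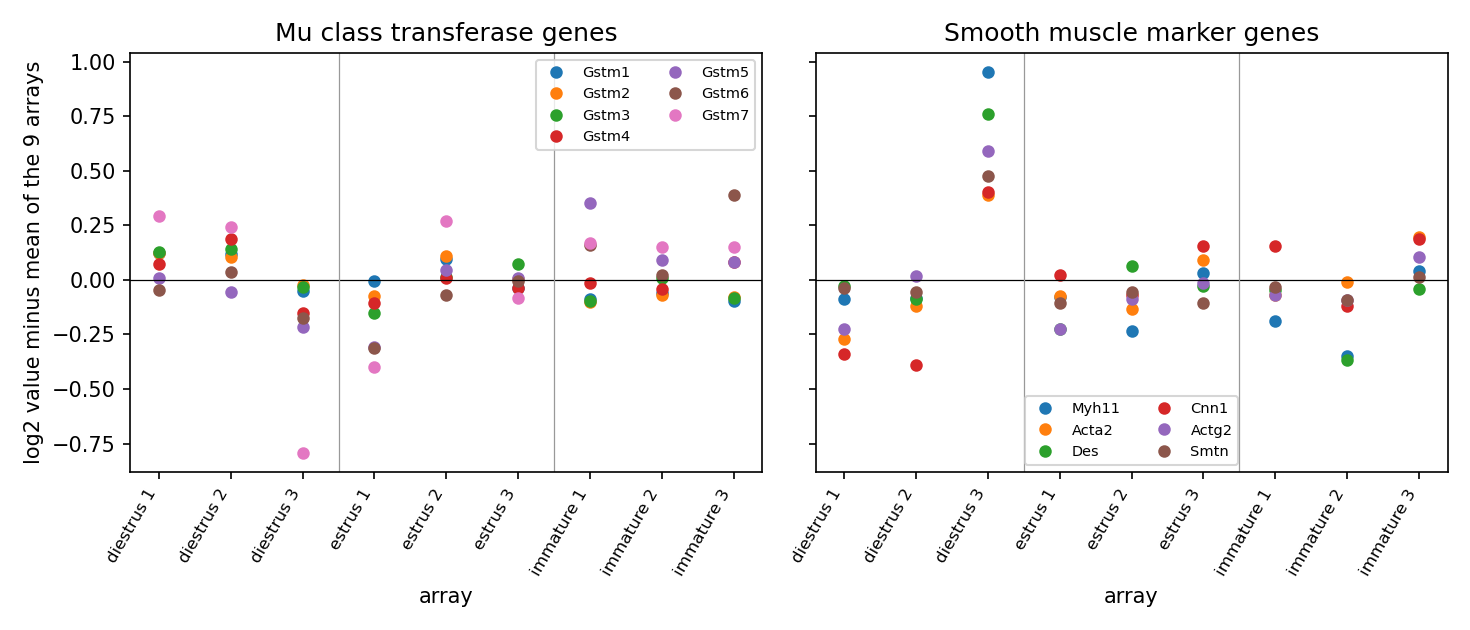
Log2 value minus the mean of the 9 arrays for 7 mu class transferase genes (left) and 6 smooth muscle marker genes (right), array by array. On diestrus 3 the mu class genes were each lowest of the diestrus arrays and the muscle markers averaged 12.27, their highest; on estrus 1 Gstm7 read 11.57 while the muscle markers averaged 11.56.

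Partners of the pathway were tested in the same fits. None of 21 measured genes of glutathione turnover, conjugates and cystine supply passed limma's test in any comparison. Nor did any of 16 glutaredoxins and thioredoxin partners or 22 genes of NRF2 control and further NRF2 targets. Srxn1 and Slc7a11 belong to more than 1 of these lists. Of all probe sets, 1.0% were called in diestrus minus immature, 0.0851% in estrus minus immature and 0.159% in diestrus minus estrus. For both mature stages against immature it was 0.432%. Lists this short can hold no call at such shares. The median differences of the lists for diestrus minus immature, in the order given, were 0.02, -0.05 and 0.02, beside 0.01 over all probe sets. Slc7a11, which imports cystine for glutathione synthesis, read 10.84, 10.83 and 10.45 in diestrus, 11.01, 11.08 and 11.32 in estrus and 11.21, 10.96 and 10.98 in immature oviduct. Its diestrus arrays lay below all others, by -0.43 ± 0.12 from estrus (SE; adjusted p = 0.260, limma). Dpep1, a membrane dipeptidase that cleaves products of glutathione, read 8.60, 8.84 and 9.30 in diestrus, 8.42, 8.31 and 8.14 in estrus and 8.13, 8.22 and 8.19 in immature oviduct. Its diestrus arrays were the highest, diestrus 3 most of all, and the difference from immature of 0.74 ± 0.15 missed the threshold (adjusted p = 0.0604, limma). Txnip, which binds and inhibits thioredoxin, was higher in diestrus than in immature oviduct by 0.44 ± 0.12 without passing (adjusted p = 0.132, limma).

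Of 14 genes of selenoprotein synthesis and transport, Selenop alone passed. Of all probe sets, 1.0% were called in diestrus minus immature and 0.159% in diestrus minus estrus. Selenop encodes the secreted protein that carries selenium, the element at the active site of Gpx3 and other glutathione peroxidases. It read 12.21, 12.32 and 12.28 in diestrus, 11.54, 11.82 and 11.73 in estrus and 11.77, 11.63 and 11.81 in immature oviduct. The diestrus arrays stood above the other 6, which overlapped. The difference was 0.53 ± 0.08 (SE; limma, adjusted p = 0.0222) for diestrus minus immature and 0.57 ± 0.08 (limma, adjusted p = 0.0328) for diestrus minus estrus, with -0.04 ± 0.08 for estrus minus immature. The call against estrus was lost whenever any of the 9 arrays was left out (adjusted p = 0.0509 to 0.174, limma) and with only the 6 arrays compared (0.109), and the call against immature without any immature array (0.0702, 0.0966 and 0.0721) or diestrus 1 or 2 (0.0621 and 0.0966). Of 19 genes of enzymes that make superoxide or peroxide and haem peroxidases, Aox3, an aldehyde oxidase, passed in diestrus minus immature, at 0.99 ± 0.17 (SE; limma, adjusted p = 0.0378). It read 10.12, 9.55 and 10.30 in diestrus, 9.20, 9.48 and 9.38 in estrus and 8.85, 8.96 and 9.18 in immature oviduct, with every diestrus array above the rest. Its call held without diestrus 2 or diestrus 3 and was lost on leaving out any of the other arrays (adjusted p = 0.0541 to 0.129, limma) or with only the 6 arrays compared (0.108).

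Not all genes of these families could be followed. Probe sets shared by Gsta1 and Gsta2 or by Gstp1 and Gstp2 numbered 5 and were not used, and 13 RefSeq genes or pseudogenes of the families, among them Gsta1, Gsta2, Gstp2, Prdx5 and Prdx6, were not analysed here because no probe set carried their symbol alone.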

How the data were processed

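Total RNA of whole oviduct was measured on 9 arrays in 3 groups of 3 pools. The deposited values are log2 intensities made by the authors with RMA in Affymetrix Expression Console, per the submitters' processing notes, that is with background correction, quantile normalization and a summary per probe set by median polish; neither tool's version is given in the sources used here. No log base is stated beside the values, whose range is that of log2 values. All 28214 probe sets were kept: 21640 had 1 symbol in the platform annotation, 1321 several and 5253 none. The number of arrays limits the precision.

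A linear model per probe set covered the 9 arrays, with two-sided moderated tests in limma 3.58.1 (lmFit, eBayes; R 4.3.3). Residual degrees of freedom were 6, prior degrees of freedom 3.60, and the residual SD had a median of 0.0957. Calls required an adjusted p under 0.05, by Benjamini-Hochberg over the 28214 probe sets. Python 3.11.15 with pandas 2.3.3 and matplotlib 3.10.9 made the tables and figures. The script was tested on simulated data.

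Genes named were those called in any contrast, the 5 highest and 5 lowest differences of each pairwise contrast, the single genes of the selection with Sod1, Sod2 and Sod3, and the brightest member of each family; of each pathway list, called genes and up to 2 others by size. Further members were described after their values were seen. The members and lists were chosen with earlier results of these data known. Promoter windows and sequences came from RefSeq (GRCm38.p6). Each alternative changed a single choice, apart from the robust prior, which came with the intensity trend. The alternatives were a block for the replicate number, array weights, a filter on dim probe sets, probe sets with 1 symbol only, cyclic loess, a repeated quantile normalization, median centring, a robust prior with an intensity trend, only the groups compared, averaging the probe sets of a gene, an adjusted p under 0.01 and each array left out. Leaving out 3 arrays with high marker values together was chosen after seeing the data. It left diestrus 1 as the only diestrus array, so its diestrus differences and counts rest on that pool.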

Additional observations from a re-analysis of the deposited data

Results flagged for a closer look

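The effects of the mature stages on Gclc differed from each other: diestrus minus estrus was -0.478 on the log2 scale, by a test of that difference itself (limma, adjusted p = 0.0229). Against immature oviduct the difference was -0.39 for diestrus, below on every array, and 0.09 for estrus, where the groups overlapped. Both contrasts use the same immature arrays. The call of diestrus minus estrus was lost with only the 6 arrays compared (adjusted p = 0.109, limma). It was lost as well without immature 2 or 3, estrus 1 or 3, or diestrus 1 or 2 (0.0535 to 0.0984). With the replicate number as a block, the adjusted p was 0.0728 (limma). Gclc was the only gene of the 50 that passed this test, and Sod3 missed the threshold narrowly (diestrus minus estrus 0.37, adjusted p = 0.0502, limma).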

How the results depend on the processing

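The 3 arrays a group limit these calls. Of 2241 values of single genes under the alternatives, 2164 kept a call or stayed uncalled and moved little beside the SE of the difference. Another 18 stayed uncalled and moved by more, 27 lost a call and 32 gained one. The block, probe set filters, trend, stricter threshold and fits with only the arrays compared cannot change a log2 difference. Nor can leaving out an array of a group not compared, so part of this agreement in size was fixed in advance. No called difference reversed, while 85 differences that were not called under either setting changed sign. Defence genes called numbered 2 for diestrus minus immature, 1 for diestrus minus estrus and 0 for estrus minus immature and for both mature stages together against immature. Diestrus minus immature gave 8 with array weights, 0 with only the arrays compared (18 at an unadjusted p under 0.05), 0 at an adjusted p under 0.01, 0 without the 3 arrays chosen after seeing the data (8 unadjusted) and 0 to 3 with 1 array left out, 0 without any immature array or diestrus 1 or 2. Diestrus minus estrus gave 3 among probe sets with 1 symbol, 2 each with the dim filter, quantile normalization again, cyclic loess, the trend with robust prior and the mean of probe sets (the gain was Sod3 each time), 11 with array weights, 0 with only the arrays compared (9 unadjusted), at an adjusted p under 0.01 and without the 3 arrays (6 unadjusted), and 0 to 3 with 1 array left out. Estrus minus immature gave 2 with array weights (Cat and Txnrd3, lower) and 0 whichever array was left out. The mean of both stages gave 1 (Gpx3) each with the dim filter, quantile normalization again, cyclic loess and the trend, 3 with array weights and 0 to 2 with 1 array left out. Array weights gave estrus 3 a weight of 8.16, and the others 0.325 to 2.16. The cause of these changes was not tested, beyond the fewer arrays or probe sets of some settings.

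Deviations of same-numbered arrays from their group means correlated at -0.29 to 0.17, and those of differently numbered arrays at -0.26 to 0.29. Same-numbered arrays were thus no more alike by this measure. An effect that they share on some probe sets was not tested. With the replicate number as a block, diestrus minus immature gave 1 call (Gpx3), diestrus minus estrus 0 and the others 0; Gclc lost both of its calls (adjusted p = 0.0706 against immature and 0.0728 against estrus, limma).

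Counts over all probe sets moved more. Estrus minus immature had 24 calls (9 higher, 15 lower), 4 with the block, 12 with 1 symbol, 5 with cyclic loess (1 higher, 4 lower), 23 with median centring (5 higher, 18 lower), 1023 with array weights, 2 at 0.01, 2 without the 3 arrays and 1 to 95 with 1 array left out. Diestrus minus immature had 282 (83 higher, 199 lower), 215 with quantile normalization again (84 higher, 131 lower), 205 with cyclic loess (82 higher, 123 lower), 121 with the block, 1288 with array weights, 85 with only the arrays compared, 31 at 0.01, 3 without the 3 arrays and 41 to 533 with 1 left out. Diestrus minus estrus had 45 (19 higher, 26 lower), 59 with quantile normalization again (32 higher, 27 lower), 60 with cyclic loess (32 higher, 28 lower), 13 with the block, 69 with the dim filter, 91 with 1 symbol, 3331 with array weights, 0 with only the arrays compared (2256 unadjusted), 1 at 0.01, 0 without the 3 arrays (1483 unadjusted) and 1 to 105 with 1 left out. The mean of both stages had 122, 44 with the block, 578 with array weights, 16 at 0.01, 3 without the 3 arrays and 14 to 300 with 1 left out.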

Other observations

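Genes around the defence enzymes that the results do not describe gave the following values. Xdh, xanthine dehydrogenase, which can yield superoxide, read 10.19, 10.51 and 10.06 in diestrus, 9.46, 9.84 and 9.50 in estrus and 9.58, 9.66 and 9.84 in immature oviduct. Every diestrus array lay above the rest, and neither diestrus minus immature (0.56 ± 0.13 SE, adjusted p = 0.0979, limma) nor diestrus minus estrus (0.66, adjusted p = 0.107, limma) passed. Ggt5, a transpeptidase that cleaves glutathione conjugates outside the cell, read 8.95, 8.94 and 9.42 in diestrus, 8.76, 8.61 and 8.66 in estrus and 8.62, 8.62 and 8.62 in immature oviduct, again with diestrus 3 highest. Its difference of diestrus from immature was 0.48 (adjusted p = 0.0973, limma). Keap1, which holds NRF2 down, ran from 8.99 to 9.26 over the 9 arrays with overlapping groups. Hmox1, haem oxygenase and an NRF2 target, read 8.98, 9.16 and 9.09 in diestrus, 8.98, 9.01 and 8.96 in estrus and 8.91, 8.86 and 8.89 in immature oviduct. Its mature arrays lay above all immature arrays, by 0.19 for diestrus (adjusted p = 0.182, limma).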
